A study of Mus musculus with 13 samples.

Results

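The genes described here encode the proteins of the cytosolic ribosome. They were taken by symbol from the GENCODE vM1 annotation of the mm9 mouse genome, as the protein-coding genes named Rpl or Rps with a number, together with Rplp0, Rplp1, Rplp2 and Rpsa. This gave 83 ribosomal protein (RP) genes of 22367 protein-coding genes. They comprise 42 genes of the large subunit, 32 of the small subunit, the 3 genes of the ribosomal stalk, and 6 paralogs (Rpl3l, Rpl7l1, Rpl10l, Rpl22l1, Rpl39l and Rps27l). Only symbols with an l after the number were classed as paralogs, so Rps4y2 was counted with the small subunit. The family was chosen because Rpl22 holds one of the highest-scoring AEBP2 peaks, so the AEBP2 values of Rpl22 describe how the genes were picked and are not a finding about them.

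The ribosome is built from a large and a small subunit, and its proteins are needed in similar amounts, so their genes are transcribed at high levels in dividing cells such as mouse embryonic stem cells (mESCs). AEBP2 is a zinc-finger accessory subunit of Polycomb repressive complex 2 (PRC2), the enzyme that methylates histone H3 at lysine 27. The trimethylated form, H3K27me3, marks silent developmental genes, many of which have CpG islands at their start sites. RP genes also start in CpG islands but are active housekeeping genes.

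Peak lists from 5 ChIP-seq samples were used, a peak being a region where DNA recovered with an antibody piles up above background. The samples came from wild-type mESCs of the 129/1 XY line, grown in serum and LIF with no other treatment. Endogenous AEBP2 and H3K27me3 had 2 replicates each, and FS2-AEBP2, a Flag-StrepII-tagged AEBP2, had 1 sample and no replicate. For mass spectrometry of the tagged protein, the paper names expression from the plasmid pCAG in E14 mESCs. Its main ChIP methods name no cells for the tagged protein, and the labels name the 129/1 line. That ChIP followed another protocol than that for the endogenous proteins. The tag, its expression, any difference in cells and the protocol therefore cannot be told apart in any difference between FS2-AEBP2 and AEBP2. The labels give the H3K27 antibody without a methylation state, and which H3K27me3 list is replicate 1 or 2 is uncertain.

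The lists held 2877 and 6779 AEBP2 peaks, 2884 FS2-AEBP2 peaks, and 14112 and 9275 H3K27me3 peaks. Depth is unknown, so the larger number of calls in AEBP2 replicate 2 cannot be read as more binding, and a promoter without a peak is one where no signal passed the threshold of the authors. A promoter was taken as the window within 1 kb of the gene start site. Intervals are Wilson intervals at 95%. They reflect counting error across genes and not the difference between experiments, and no test was run, since genes are not replicates. Of 6 genes active in mESCs that were used to check the label (Pou5f1, Nanog, Sox2, Klf4, Zfp42 and Esrrb), only Klf4 had an H3K27me3 peak, in replicate 1. The lists hold no expression values.

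The promoter of Rpl22 is shown first, since it carries the peak on which the family was picked, with 3 promoters for contrast. Rpl3 had the highest FS2-AEBP2 score of the family and no endogenous AEBP2 peak, Rps20 had FS2-AEBP2 and AEBP2 replicate 2 peaks, and Rpl31 had no peak in any list. Each sequence runs 5′ to 3′ on the strand of the gene, from 120 bases before its first coding transcript start to the 10 bases that begin the transcript, with CpG dinucleotides in capitals. In mm9 they lie at chr4:151699842-151699971 on the plus strand, chr15:79913827-79913956 on the minus strand, chr4:3762803-3762932 on the minus strand and chr1:39424576-39424705 on the plus strand.
Rpl22: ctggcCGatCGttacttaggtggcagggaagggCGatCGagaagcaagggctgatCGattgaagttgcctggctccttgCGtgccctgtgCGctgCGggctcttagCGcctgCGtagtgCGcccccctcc
Rpl3: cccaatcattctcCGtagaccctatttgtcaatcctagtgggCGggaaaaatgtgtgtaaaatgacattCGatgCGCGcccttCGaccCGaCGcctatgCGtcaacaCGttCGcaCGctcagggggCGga
Rps20: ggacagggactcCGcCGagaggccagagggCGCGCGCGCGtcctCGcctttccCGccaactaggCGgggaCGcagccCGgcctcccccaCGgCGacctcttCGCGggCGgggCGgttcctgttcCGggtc
Rpl31: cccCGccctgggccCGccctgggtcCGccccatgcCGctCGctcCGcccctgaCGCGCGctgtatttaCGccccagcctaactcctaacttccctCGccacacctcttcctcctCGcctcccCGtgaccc

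In these 130 bases Rpl22 has 11 CpG dinucleotides and a GC content of 63.8%. Rpl3 has 13 CpGs at 54.6% GC, Rps20 has 19 at 76.2%, and Rpl31, without a peak, has 13 at 71.5%.

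Of the 83 RP promoters, 11 had an AEBP2 peak in replicate 1, which is 13.3% (interval 7.56 to 22.2), where 9.08% of all protein-coding promoters had one. In replicate 2 it was 34, or 41.0% (31 to 51.7), against 22.3% of all promoters. A peak in both replicates was found at 9 RP promoters, 10.8% (5.81 to 19.3) against 8.44%, and a peak in either at 36, 43.4% (33.2 to 54.1) against 22.9%. Because the family was picked on these lists, nothing is read from these shares. Without Rpl22 the counts were 10, 33, 8 and 35 of 82. Replicate 2 decided the count for either replicate, which was 11 without it.

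FS2-AEBP2 was not used to pick the family, but its list is not independent of those that were. Of its promoters without an H3K27me3 peak, 61.0% also had an AEBP2 replicate 2 peak. FS2-AEBP2 peaks lay at 12 RP promoters, 14.5% (8.47 to 23.6), and at 6.53% of all promoters. H3K27me3 was almost absent from the family. No RP promoter had a peak in H3K27me3 replicate 1 (interval 0.0 to 4.42%) and 1 did in replicate 2 (1.2%, 0.213 to 6.51), whereas 17.0% and 17.7% of all promoters had one. A peak in either replicate lay at 1 of 76 mitochondrial RP promoters and 1 of 28 ribosome biogenesis promoters. It lay at 8 of 70 translation factor promoters (11.4%) and at 19.8% of all promoters.

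Many promoters with AEBP2 or FS2-AEBP2 peaks carry H3K27me3, so the RP genes were also set beside the 17935 promoters that neither H3K27me3 replicate marked. In that group AEBP2 replicate 1 peaks lay at 3.43% of promoters, replicate 2 peaks at 13.9%, peaks of both at 2.99% and FS2-AEBP2 peaks at 0.859%. The 82 RP genes among them had 13.4% (7.66 to 22.4), 41.5% (31.4 to 52.3), 11% (5.88 to 19.6) and 14.6% (8.57 to 23.9). RP genes are 0.457% of these promoters, and they made up 12 of the 154 with an FS2-AEBP2 peak, or 7.79%.

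CpG-island-like promoters, those with a 500 bp window that is 55% GC or more and holds CpGs at 0.65 or more of the number its base composition predicts, were the closest comparison. The RP genes with such a promoter numbered 78 of 83, and none of these 78 had H3K27me3. Among all 8804 CpG-island-like promoters without H3K27me3, the shares were 6.85% in AEBP2 replicate 1, 27.6% in replicate 2, 6.0% in both and 1.68% for FS2-AEBP2. Those of the 78 RP genes were 14.1% (8.06 to 23.5), 43.6% (33.1 to 54.6), 11.5% (6.19 to 20.5) and 15.4% (9.03 to 25). The FS2-AEBP2 share rests on 1 sample, with intervals that count genes, so the difference was not tested and no enrichment is concluded. The comparison promoters were not matched on GC content, CpG number or expression.

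Few RP peaks had a high score. Shares with a score limit were taken over all 83 RP promoters. These include the 5 without a CpG-island-like region, which the comparison promoters all have. At or above the 75th percentile of the scores of their list, RP peaks lay at 2.41% (0.663 to 8.37) in AEBP2 replicate 1. In replicate 2 they lay at 6.02% (2.6 to 13.3). Among the other CpG-island-like promoters without H3K27me3 the shares were 2.27% and 6.29%. For FS2-AEBP2 only 1 RP promoter remained, that of Rpl3, or 1.2% (0.213 to 6.51) against 0.218%. At or above the median score the RP share was 25.3% (17.2 to 35.6) against 14.6% in AEBP2 replicate 2, and 4.82% (1.89 to 11.7) against 0.607% for FS2-AEBP2, but in replicate 1 it was 4.82% (1.89 to 11.7) against 3.83%.

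The plot of shares sets the family beside other genes of protein synthesis. The 76 mitochondrial RP genes, nuclear genes for the ribosome of the mitochondrion, had AEBP2 peaks at 7.89% (3.67 to 16.2) in replicate 1 and 30.3% (21.1 to 41.3) in replicate 2. None had an FS2-AEBP2 peak (interval 0.0 to 4.81%). Of 70 translation factor genes 8, 24 and 3 had a peak in AEBP2 replicate 1, AEBP2 replicate 2 and FS2-AEBP2, and the 3 with FS2-AEBP2 were Eef2, the factor that moves the ribosome along the mRNA, and the helicase genes Eif4a1 and Eif4a2. Of 28 ribosome biogenesis genes 5, 10 and 3 did, the last being the nucleolar genes Ncl, Nop56 and Nop58. Their FS2-AEBP2 share was 10.7% (3.71 to 27.2), and that of the translation factors 4.29% (1.47 to 11.9). Differences between these sets were not tested. H3K27me3 lay at 8 translation factor promoters in either replicate, among them Eef1a2, a tissue-restricted elongation factor. Fau, which encodes a ribosomal protein fused to a ubiquitin-like part and falls outside the symbol rule, had a peak in AEBP2 replicate 2 only. The starts of 152 annotated RP pseudogenes, copies that mostly lack the promoter, had no peak in any AEBP2 list (interval 0.0 to 2.46%). They were taken by symbol, as an RP gene name followed by -ps, so copies named otherwise were not counted. RP exons are near-identical to such copies, and how reads with several matches were placed is not given in the sources used here.

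**Figure D1:**
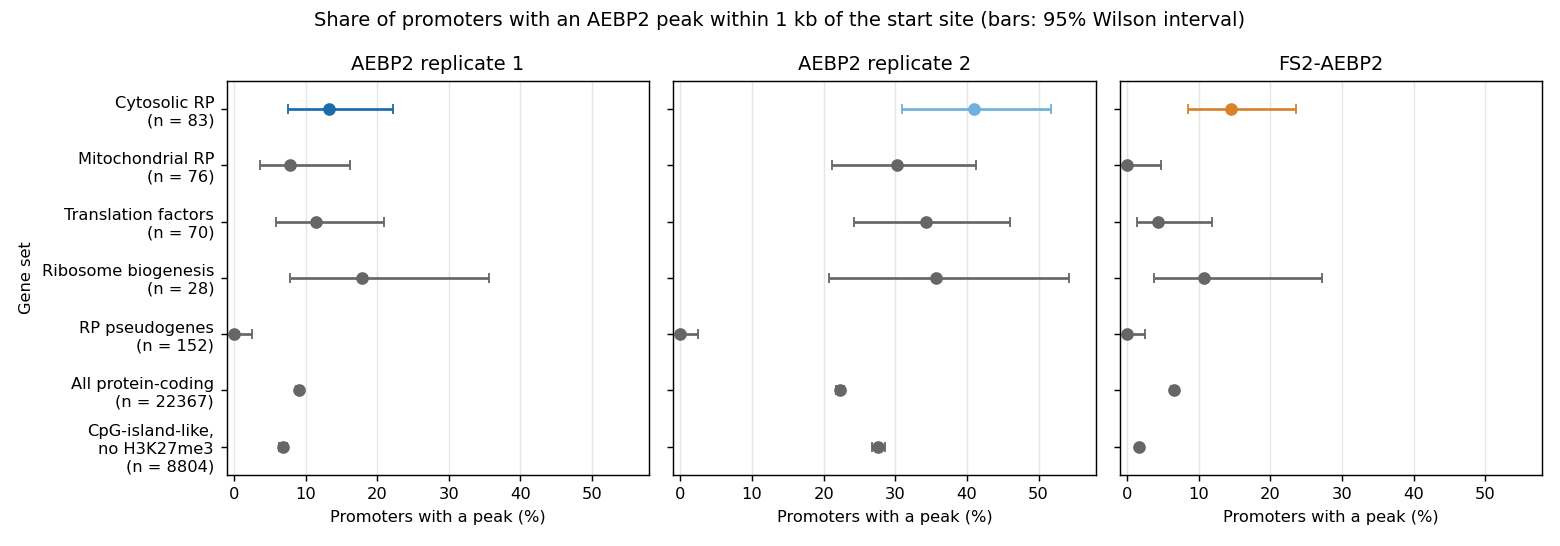
Share of promoters with a peak within 1 kb of the start site (x axis, %) for each gene set (y axis), in AEBP2 replicate 1, AEBP2 replicate 2 and FS2-AEBP2. Points are shares and bars are 95% Wilson intervals; the 83 cytosolic RP genes (coloured) sit at 13.3%, 41.0% and 14.5%, and the mitochondrial RP genes at 7.89%, 30.3% and 0.0%.

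By subunit, the shares did not separate. AEBP2 replicate 2 peaks lay at 18 of 42 large-subunit genes (42.9%, 29.1 to 57.8) and 13 of 32 small-subunit genes (40.6%, 25.5 to 57.7), and those of replicate 1 at 5 and 6. FS2-AEBP2 peaks lay at 6 and 4. Among the stalk genes, whose products recruit translation factors to the ribosome, Rplp0 had peaks in AEBP2 replicate 2 and FS2-AEBP2, with scores of 6 and 4, and Rplp1 and Rplp2 had none. Rpsa, which encodes a small-subunit protein also known as a laminin receptor, had none. Of the paralogs, Rpl22l1 had AEBP2 replicate 2 and FS2-AEBP2 peaks, with scores of 1 and 2 near the bottom of each list, and Rpl7l1 had an AEBP2 replicate 2 peak with a score of 10. The other 4 had none.

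**Figure D2:**
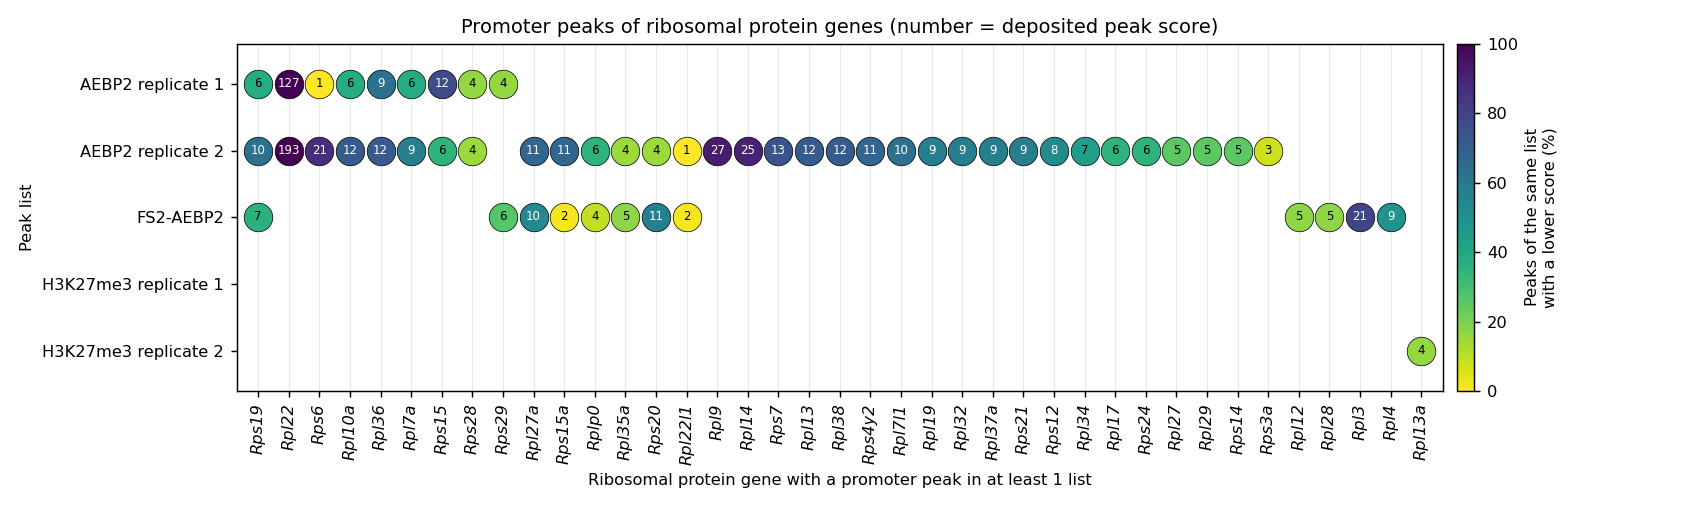
Promoter peaks of 39 of the 41 RP genes with a peak in at least 1 of the 5 lists (x axis, genes; y axis, lists). The number in each point is the deposited score and the colour the percentage of peaks of the same list with a lower score; 8 of the genes drawn have a peak in both AEBP2 replicates, Rps19 has one in all 3 AEBP2 lists, and Rpl13a is the only gene in an H3K27me3 list.

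Scores are whole numbers given by the peak caller on a scale that is not stated, so they were compared only within a list, where the lowest was 1 and the highest 148, 193 and 130 in AEBP2 replicate 1, AEBP2 replicate 2 and FS2-AEBP2. The RP genes with a peak in both AEBP2 replicates, 9 in number, included Rpl7a, Rpl10a, Rpl22, Rpl36, Rps6, Rps15, Rps19 and Rps28. The peaks of both replicates overlapped in all 9, by 186 to 1287 bp. As a share of each list this was 81.8% of the RP promoters of replicate 1 and 26.5% of those of replicate 2. Over all promoters without H3K27me3 it was 87.3% and 21.6%.

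Rpl22 encodes a large-subunit protein that is also known to bind RNA outside the ribosome. Its peak had a score of 127 in replicate 1, the third highest of the list, and 193 in replicate 2, the highest. It ran from 151699180 to 151700466 on chromosome 4 (1287 bp) in replicate 1 and from 151699047 to 151700569 (1523 bp) in replicate 2. Both held the start site, reached 671 and 804 bp upstream of it, and lay partly outside the gene (52.1% and 52.8% of the bases). No FS2-AEBP2 or H3K27me3 peak was called there, although its paralog Rpl22l1 had an FS2-AEBP2 peak.

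The other RP peaks had much lower scores. In replicate 1 they ran from 1 to 12, and in replicate 2 from 1 to 27. After Rpl22, the highest in replicate 1 were among the genes named here Rps15 with 12, Rpl36 with 9, and Rpl7a, Rpl10a and Rps19 with 6 each. In replicate 2 they were Rpl9 with 27, Rpl14 with 25, Rps6 with 21 and Rps7 with 13, and neither Rpl9, Rpl14 nor Rps7 had a peak in replicate 1. The middle RP peak scored above 38.4% of the list in replicate 1, 57.7% in replicate 2 and 21.8% for FS2-AEBP2.

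The replicates did not rank the shared genes alike. Rps6, whose product is phosphorylated downstream of mTOR, had the lowest score of the list in replicate 1 (1) and 21 in replicate 2. Rps15 had 12 and 6, Rps28 had 4 in both, Rpl36 had 9 and 12, Rpl7a had 6 and 9, Rpl10a had 6 and 12, and Rps19 had 6 and 10. Spearman's rho between the replicates was 0.306 over these 9 genes and 0.0 over the 8 without Rpl22, given as a description. Besides Rps6, the lowest scores in replicate 1 were those of Rps28 and Rps29, at 4 each, and low scores in replicate 2 included those of Rpl22l1 at 1 and Rps3a at 3.

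A peak in replicate 1 alone was found for 2 genes, among them Rps29 (score 4), and in replicate 2 alone for 25 genes with scores from 1 to 27. These 25 include Rpl38, whose loss is known to alter the translation of Hox mRNAs in mice. Its peak, 1410 bp from 3 bp after the start site into the gene, was the longest RP peak of the list after that of Rpl22.

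The 12 RP genes with an FS2-AEBP2 peak were Rpl3, Rpl4, Rpl12, Rpl22l1, Rpl27a, Rpl28, Rpl35a, Rplp0, Rps15a, Rps19, Rps20 and Rps29. Their scores ran from 2 to 21. Rpl3, a protein next to the peptidyl transferase centre, had the highest score (21, above 79.3% of the list) and the longest peak (972 bp, chromosome 15, 79913198 to 79914169). Next were Rps20 with 11, Rpl27a with 10, Rpl4 with 9 and Rps19 with 7, and the lowest were Rps15a and Rpl22l1 with 2 each and Rplp0 with 4. Rps29 had 6, and Rpl12, Rpl28 and Rpl35a had 5 each. Of these 12 genes, 8 (66.7%, 39.1 to 86.2) also had an endogenous AEBP2 peak and 4 (Rpl3, Rpl4, Rpl12 and Rpl28) had none, where 98 of all 154 FS2-AEBP2 promoters without H3K27me3 (63.6%, 55.8 to 70.8) had one. The highest-scoring RP gene of the tagged list was therefore without a peak of the endogenous protein, and Rpl22 the reverse.

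FS2-AEBP2 and AEBP2 replicate 2 shared 7 RP promoters, 58.3% of the 12 and 20.6% of the 34, and the peaks overlapped in 6 of them, by 111 to 361 bp. Over all promoters without H3K27me3 these shares were 61.0% and 3.78%. FS2-AEBP2 and AEBP2 replicate 1 shared 2, Rps19 and Rps29, or 16.7% and 18.2%, against 20.8% and 5.2%. The shares of FS2-AEBP2 promoters with an endogenous peak were thus near those of all such promoters. Rps19, the gene most often mutated in Diamond-Blackfan anaemia, was the only member with a peak in all 3 AEBP2 lists. Its FS2-AEBP2 peak began 503 bp after the start site and ended at 770 bp, its replicate 2 peak stopped 60 bp short of it, and its replicate 1 peak (158 to 591 bp) overlapped both.

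RP peaks lay towards the gene body. The centre of the peak lay downstream of the start site in 10 of 11 RP peaks of AEBP2 replicate 1 (90.9%), 32 of 34 in replicate 2 (94.1%) and 11 of 12 for FS2-AEBP2 (91.7%). In the peaks at other promoters without H3K27me3 these shares were 58.5%, 68.9% and 64.8%, and in those with H3K27me3 79.1%, 76.9% and 74.4%. A peak in the windows of several genes was counted once for each. The median centre was 190 bp downstream of the start for RP peaks in replicate 1, 163 bp in replicate 2 and 148 bp for FS2-AEBP2. At other promoters without H3K27me3 it was 37.5, 88.8 and 144 bp, so the median of FS2-AEBP2 was close to that of this comparison. At those with H3K27me3 it was further in, at 509, 369 and 558 bp. The peaks of Rpl22, Rpl37a (replicate 2) and Rps29 (FS2-AEBP2) were centred upstream, by 28 and 43, 85 and 54 bp. The median length of RP peaks was 434 bp in replicate 1, 468.5 bp in replicate 2 and 229 bp for FS2-AEBP2. These were near the 445, 538 and 256 bp of the peaks at other promoters without H3K27me3.

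**Figure D3:**
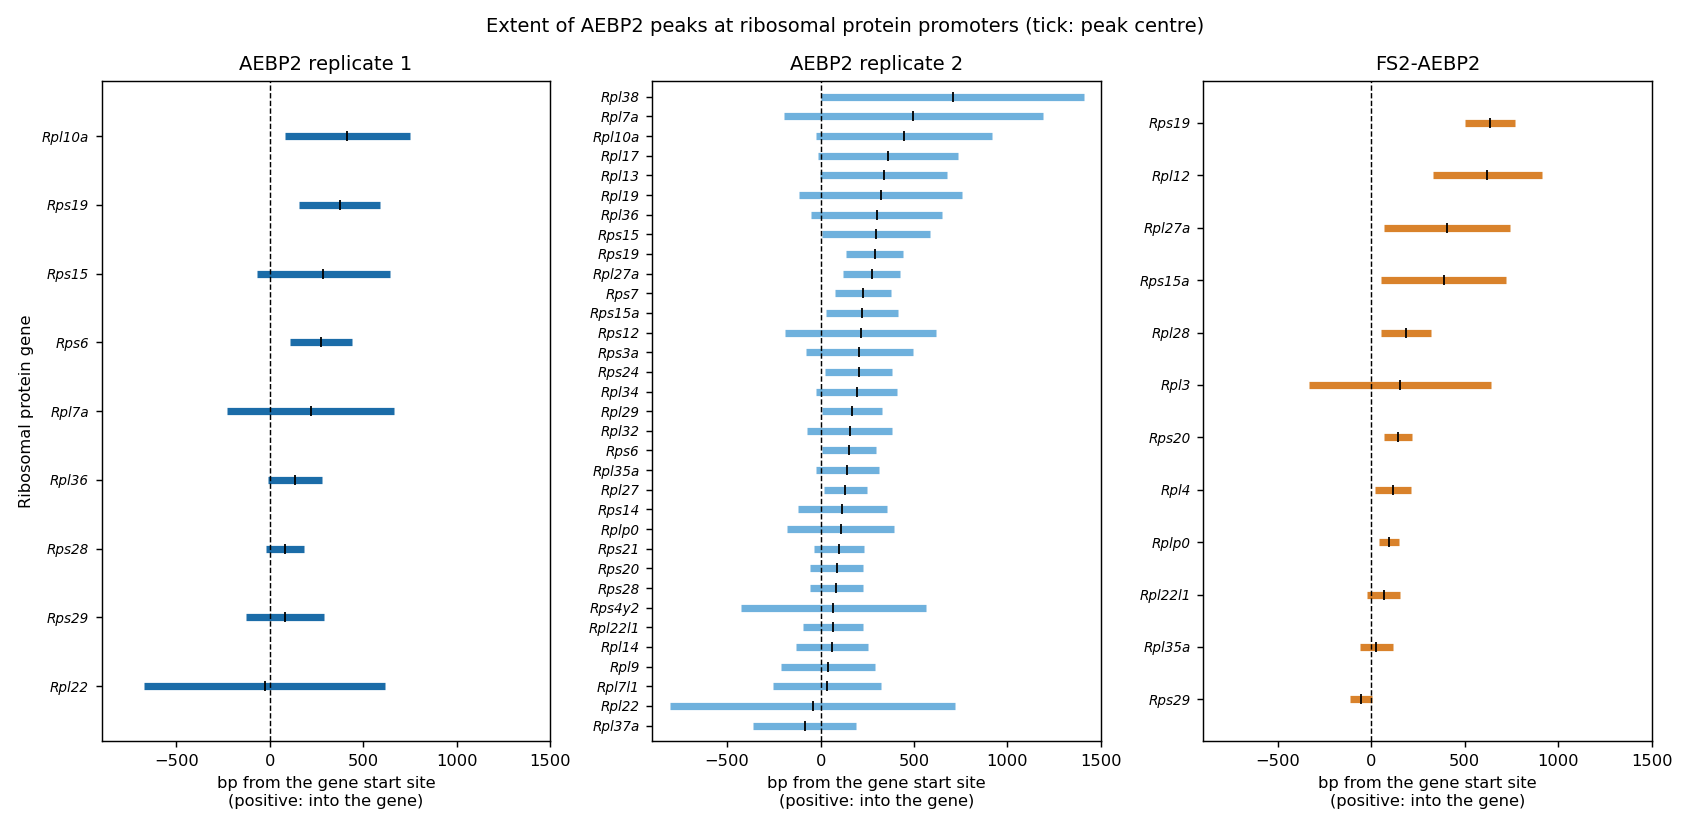
Extent of RP promoter peaks (bars) and their centres (ticks), in bp from the start site of the gene (x axis, positive into the gene), for the RP genes (y axis) of each AEBP2 list, ordered by centre. The peaks drawn number 9, 33 and 12. Most bars lie to the right of the dashed start site, with the centre downstream in 8, 31 and 11 of them, and the peaks of Rpl22 reach 671 and 804 bp upstream.

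The start site itself lay inside the peak for 7 of 11 (63.6%), 24 of 34 (70.6%) and 4 of 12 (33.3%) RP genes, near the 68.3%, 73.4% and 24.6% of the peaks at other promoters without H3K27me3. The peaks covered exons and introns of the annotated transcripts. The Rps6 peaks and the replicate 2 peaks of Rpl27, Rpl27a and Rps19 lay wholly in annotated exons of some transcript, and the replicate 2 peaks of Rpl17 and Rps24 were intronic over 86.2% and 85.3% of their length. The window set few calls. The farthest peak inside it began 503 bp from the start site (Rps19, FS2-AEBP2), and the nearest outside it lay 1237 bp away (Rps10, AEBP2 replicate 2), 2245 bp (Rps28, FS2-AEBP2) and 3323 bp (Rpl3l, AEBP2 replicate 1).

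Of the RP promoters with an AEBP2 or FS2-AEBP2 peak, 6 held the start of a second protein-coding gene, to which the peak could belong as well. These were Rpl7a with Med22 (87 bp apart), Rpl9 with Lias (54 bp), Rps28 with Ndufa7 (29 bp), Rpl35a with Iqcg (235 bp), Rpl12 with Lrsam1 (55 bp) and Rpl4 with Zwilch (283 bp). The second-highest RP score of replicate 2, at Rpl9, is thus on a start region shared with Lias, a lipoic acid synthase gene.

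Rpl13a was the only RP gene with H3K27me3. The peak, in replicate 2 alone, had a score of 4 (above 16.4% of the list), measured 632 bp and lay 360 to 991 bp downstream of the annotated start. That start lies 15 bp from the start of Flt3l, a cytokine gene, and other coding transcripts of Rpl13a begin 7669 and 7680 bp further into the gene. Taking the starts of all coding transcripts added an AEBP2 replicate 2 peak for Rpl13a, and also for Rpl18 and Rps10. No RP promoter had an AEBP2 or FS2-AEBP2 peak together with H3K27me3. The next nearest H3K27me3 peak was 1353 bp from the start of Rpl7. The 5 RP genes without a CpG-island-like promoter were Rpl3l, Rpl10, Rpl13a, Rpl39l and Rps2, and none had a peak in any AEBP2 list at its gene start. For Rpl13a both statements describe the start beside Flt3l and not its other coding starts.

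In the 300 bases from 250 before the start site of the gene to the 50 that follow, 7 short words bound by promoter factors were searched on both strands. The word TCTCGCGA, a core recognised by ZBTB33 (Kaiso) whose reverse complement TCGCGAGA overlaps it in the palindromic form, was in 12 RP promoters, 14.5% (8.47 to 23.6), against 1.35% of all promoters, 2.3% of those with a CpG-island-like region and 1 of 76 mitochondrial RP promoters. The 30-base windows of 9 holders are shown, since of the 7 words this one differed most in share between RP genes with and without an AEBP2 peak. They are given 5′ to 3′ on the strand of the gene, with the word in capitals, on either strand. The first 7 had a peak in an AEBP2 replicate.
Rpl7a: agggcgcctgcTCTCGCGAtatctgcggcc
Rpl27a: cgcctgctaccTCGCGAGActtcgtgagct
Rps3a: gccagctagtgTCGCGAGAttcttaaagcc
Rps6: ccgccggctgtTCTCGCGAGAacttagagc
Rps15a: tgaccatgaagTCTCGCGAtagcgcttccg
Rps19: gtatctcttggTCTCGCGAatgctaatgct
Rps28: accgcgtgcggTCTCGCGAGAgcgaaagtg

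Rpl23a and Rpl26 had no peak in any AEBP2 list.
Rpl23a: tatataagctaTCGCGAGActtttatgagc
Rpl26: cgctccgagacTCTCGCGAGAtctcgcggc

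In mm9 these windows lie at chr2:26766264-26766293 on the plus strand, chr7:116662677-116662706 on the plus strand, chr3:85946598-85946627 on the minus strand, chr4:86503304-86503333 on the minus strand, chr7:125259709-125259738 on the minus strand, chr7:25669158-25669187 on the plus strand and chr17:33961490-33961519 on the minus strand for the genes with a peak. For those without one they lie at chr11:77997098-77997127 on the minus strand and chr11:68715031-68715060 on the plus strand. Counted from the start site to the first base of the word, it begins 9 bp before the start in Rpl7a, 6 bp in Rps6, 27 bp in Rps15a, 221 bp in Rps19 and 1 bp in Rps28, and 27 bp after it in Rpl27a and 8 bp in Rps3a. In the genes without a peak it begins 30 and 43 bp before the start of Rpl23a and Rpl26. The full palindrome of both words was in Rps6 and Rps28, which had a peak in both replicates, and also in Rpl26, which had none. The presence of the palindrome therefore did not separate the genes with a peak from those without.

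Of the 36 RP genes with a peak in either AEBP2 replicate, 9 held the word (25%, 13.8 to 41.1), and of the 47 without one, 3 did (6.38%, 2.19 to 17.2). The intervals overlap. Among the 9 genes with a peak in both replicates, 4 held it (Rpl7a, Rps6, Rps19 and Rps28). The same direction was seen outside the family, where 6.23% (5.35 to 7.26) of other CpG-island-like promoters without H3K27me3 held the word when they had a peak in either replicate and 1.52% (1.24 to 1.85) when they had none. Seen from the word, 75% (46.8 to 91.1) of the 12 RP holders had a peak in either replicate, beside 61.8% (55.7 to 67.7) of 249 other holders among these promoters. For FS2-AEBP2 it was 25% (8.89 to 53.2) beside 3.61% (1.91 to 6.73). Most RP genes with an AEBP2 peak, 27 of 36, did not hold the word, and neither did Rpl22, in whose window none of the 7 words was found. The direction outside the family was not particular to this word. Among all CpG-island-like promoters without H3K27me3, 14.0% with and 3.83% without an AEBP2 replicate 2 peak held the NRF1 core GCGCATGC. The ZBTB33 core was in 6.33% and 1.68% of them, and the median CpG number was 25 and 21. The YY1 core went the same way (6.62% and 5.27%). The ETS (19.5% and 22.7%) and SP/KLF (21.8% and 24.7%) words went the other way. The E-box (10.8% and 11.3%) and NFY (39.5% and 39.7%) words differed little.

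**Figure D4:**
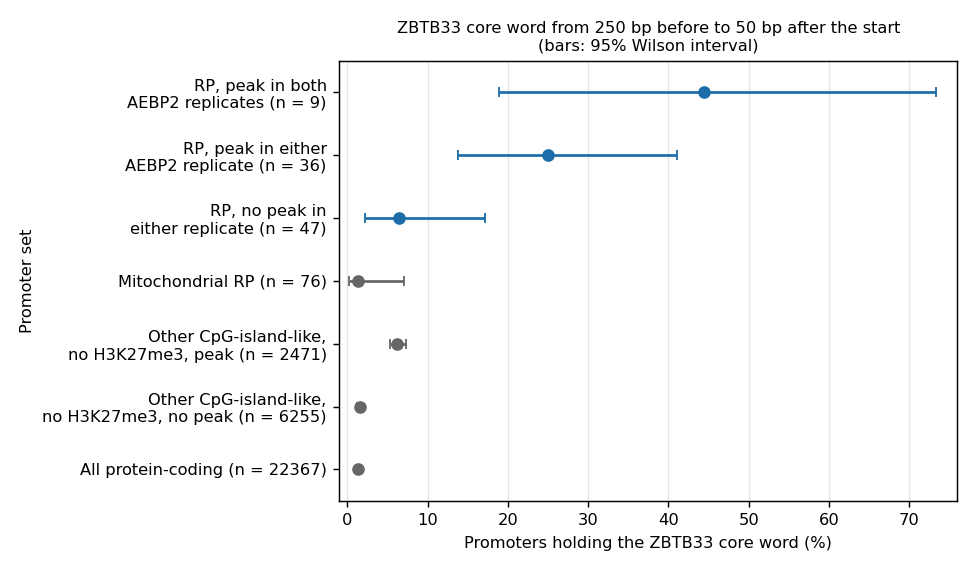
Share of promoters holding the ZBTB33 core word between 250 bp before and 50 bp after the start site (x axis, %) for each promoter set (y axis), with 95% Wilson intervals as bars. RP genes with a peak in both or either AEBP2 replicate sit at 44.4% and 25%, those without at 6.38%, and all protein-coding promoters at 1.35%. The word was singled out on the split between RP genes with and without a peak.

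Within 1 kb of the start, a window added after these values were seen, 17 RP genes held the word, 11 of 36 with a peak in either replicate (30.6%, 18.0 to 46.9) and 6 of 47 without (12.8%, 5.98 to 25.2). The word lay inside an AEBP2 peak in 7 of the 11, in Rps19 only through 2 further places 194 and 213 bp after the start, since its place 221 bp before the start lies outside both its AEBP2 peaks. It lay outside the peaks of Rps6, where it precedes peaks that begin 10 and 110 bp after the start, and outside those of Rps7, Rps15a and Rpl27a. In the 5 RP genes with both the word and an FS2-AEBP2 peak it was never inside that peak.

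Among the other words, the ETS core CCGGAAG was in 28.9% of RP promoters against 10.8% of all, and in 22.2% of RP promoters with a peak in either replicate and 34.0% of those without. The box CCAAT of NFY was in 32.5% against 37.9%, the YY1 core AAGATGGC in 7.23% against 3.3%, the E-box CACGTG in 10.8% against 7.78%, the NRF1 core GCGCATGC in 3.61% against 3.3%, and the SP/KLF box GGGGCGGGG in 8.43% against 14.7%. The YY1 core and the E-box were in 8.33% and 11.1% of the RP promoters with a peak in either replicate and in 6.38% and 10.6% of those without. A coding transcript that begins with a C and 4 pyrimidines, the terminal oligopyrimidine start through which mTOR is known to control the translation of RP mRNAs, was annotated for 19.3% of RP genes against 4.04% of all. It was seen in 5 of the 36 RP genes with an AEBP2 peak, in 11 of the 47 without, and in none of the 9 with a peak in both replicates. Annotated starts can be off by some bases, which limits this count. GC content differed little, with a median of 56.3% in the RP genes with a peak and 53.7% in those without, and a median of 21 and 16 CpGs.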

How the data were processed

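ChIP-seq peak lists of wild-type mESCs were used for AEBP2 and H3K27me3 (2 replicates each) and FS2-AEBP2 (1 sample). The SUZ12, input and Aebp2 mutant samples were not analysed here. The submitters' processing notes name mm9, Bowtie, SAMtools, Picard and MACS2 2.0.10.2, without settings. Peaks were called by the authors in each sample, and each deposited peak has a start, an end and a whole-number score of unstated scale. Depth is unknown. Groups were taken from the sample labels.

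Peaks outside chromosomes 1 to 19, X and Y were dropped (2 of AEBP2 replicate 1 and 13 of H3K27me3 replicate 2). A promoter (within 1 kb of the gene start, GENCODE vM1) had a peak where at least 1 bp overlapped. Shares carry Wilson intervals and no test was run. CpG-island-like windows were taken every 10 bp. Counting was tested on simulated lists. Sequences were read from the mm9 genome. Some genes are counted but not reported by name here. Genes named are those with peaks in both AEBP2 replicates, FS2-AEBP2 or H3K27me3, the 5 highest and 3 lowest scores of each AEBP2 list, the stalk genes and Rpsa, shared promoters with an AEBP2 peak, and members without a CpG-island-like promoter. Other genes were named after their values were seen. The members, lists and words were chosen with earlier results of these data known. Alternatives were other windows, overlaps, score limits, start sites and members, and each AEBP2 replicate left out. Python 3.11.15, numpy 2.4.6, pandas 2.3.3, scipy 1.17.1 and matplotlib 3.10.9 were used.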

Additional observations from a re-analysis of the deposited data

How the results depend on the processing

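Of 63 alternative values, 47 stayed within 1.5 times the reported count or, for the share, within its interval, and 16 did not. Promoters of 500 bp, an overlap of at least 50% of the peak, all transcript starts, and leaving out Rpl22 or the paralogs moved none beyond these limits. The score limit moved most. With peaks at or above the median score, RP promoters with a peak numbered 4 in AEBP2 replicate 1, 21 in replicate 2, 2 in both, 23 in either, 4 for FS2-AEBP2 and 0 for H3K27me3 replicate 2, and the share of replicate 1 peaks overlapping replicate 2 was 50.0% of 4. At or above the 75th percentile the numbers were 2, 5, 1, 6, 1 and 0. With promoters of 2.5 kb, H3K27me3 replicate 2 had 2. Leaving out one AEBP2 replicate at a time, the count for both ran from 11 (without replicate 2) to 34 (without replicate 1), and that for either from 11 to 34, so the count for either replicate rests on replicate 2. Searching the ZBTB33 core word within 1 kb, chosen after seeing the data, gave 17 RP promoters in place of 12. No paired analysis was possible because the results come from no test and each list is 1 sample. Depth is unknown, so it limits each absence of a peak.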
